A study of Mus musculus with 20 samples.

Results

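Expression of 10 genes that mark tissue-resident macrophages was followed in the cecum of 20 C57BL/6 mice fed increasing amounts of raw potato starch (RPS). The genes were taken by symbol from a list of tissue macrophage genes (Adgre1, Csf1r, Mrc1, Siglec1, Cd163, Lyve1, Lyz2, Mertk, Folr2, and Fcgr1), and all 10 were found among the 19887 genes of the count table and among the 15348 genes tested. After weaning, at 3 weeks of age by the series' design text, the mice were placed on the Total Western Diet (TWD), a rodent diet formulated to resemble human Western intake. After 6 weeks, groups of 5 mice were given the TWD with 0, 2, 5, or 10% RPS for 3 more weeks, and each mouse gave 1 library from the cecum. Mice are numbered 1 to 5 within a diet, and the numbers pair no mice across diets. All 4 groups therefore ate the TWD throughout, and the sources used here name male mice for the cecal contents but do not state the sex of the mice for the RNA libraries.

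Macrophages of the gut wall lie beneath the epithelium and in the muscle layer, where they engulf dying cells and bacteria. Many of those in the mucosa are replaced continuously by blood monocytes, while some in deeper layers are long-lived. They depend on signaling through the receptor for colony-stimulating factor 1, and mature cells carry receptors for antibody, apoptotic cells, sugars, hemoglobin, and hyaluronan. In RNA from whole tissue, fewer cells of a type and less RNA per cell cannot be told apart.

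The libraries held 14967798 to 42687283 counts, with a median of 30156799. Levels are given as CPM, the count of a gene relative to the total of its library, scaled by the trimmed mean of M-values (TMM), whose factors ran from 0.916 to 1.07, and 3 counts correspond to 0.200 CPM in the smallest library. Mitochondrial genes took 9.0 to 15.4% of the counts. The summed level of 8 B cell and lymphoid follicle markers ran from 4.03 to 347 CPM over the mice and differed widely within diets.

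None of the 10 genes passed the threshold (adjusted p of at most 0.05 and a fold change of at least 1.5) in any comparison of diets by edgeR's quasi-likelihood test, where 1.04% of all genes tested passed at 10%, 0.195% at 5%, and 0% at 2% against 0% RPS. At 10% against 0% RPS, Lyz2, the lysozyme of macrophages and other myeloid cells, had the highest estimate, 2.16-fold (log2 1.11 ± 0.42 SE, 5 mice per group, adjusted p = 0.159). It was followed by Siglec1 at 1.58-fold, Csf1r at 1.46-fold, Mrc1 at 1.25-fold, and Mertk at 1.23-fold, with adjusted p-values of 0.138, 0.266, 0.271, and 0.123. All 10 estimates lay above 0 at 10, 5, and 2% RPS, in comparisons that share the same 5 mice fed 0% RPS.

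The coding sequence of Lyz2 is shown because mice carry a near-identical neighbor, Lyz1, the lysozyme typical of Paneth cells in the small intestine, and the pair moved together across mice. Lyz2 lies on GRCm39 at chr10:117111557-117118346 on the minus strand, and its coding sequence begins at position 117118147. Lyz1 lies at chr10:117123698-117128775 on the same strand, and its coding sequence begins at position 117128743. The first 150 spliced coding bases of each are given 5′ to 3′, read from the GRCm39 genome through the GENCODE annotation, with the 14 bases that differ in capitals.
Lyz2: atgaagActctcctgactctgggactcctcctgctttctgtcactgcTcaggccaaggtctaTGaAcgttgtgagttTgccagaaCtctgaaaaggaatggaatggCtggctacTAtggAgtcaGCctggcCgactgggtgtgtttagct
Lyz1: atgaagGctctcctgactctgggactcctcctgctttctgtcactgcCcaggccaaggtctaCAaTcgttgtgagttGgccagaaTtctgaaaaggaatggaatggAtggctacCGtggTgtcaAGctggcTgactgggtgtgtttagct
Over the whole coding sequence of 447 bases, 22 bases differed (95.1% identical), and the longest identical run was 118 bases, longer than the reads of 50 bases. Of the 148 amino acids, 12 differed (91.9% identical). Over whole transcripts, 15.7% of the 50-base stretches of Lyz1 also occurred in another gene, 14.3% in Lyz2. Lyz1 and Lyz2 counts could therefore have been divided in part by the counting, whose treatment of reads that match several genes is not given in the sources used here.

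Among the other members, shared stretches of 50 bases were uneven. In Folr2, 48.4% of the stretches also occurred in Gm10602, and in Csf1r 18.3% occurred in Hmgxb3, counted over both strands. In Lyz2, 11.5% occurred in the noncoding gene Gm67237. For Mertk, Siglec1, and Cd163 the share with any other gene was 1.82, 1.33, and 0.155%, and for Adgre1, Mrc1, Lyve1, and Fcgr1 it was 0%. The counts of Folr2, Csf1r, and Lyz2 thus carry an uncertainty that those of the other members carry little of or lack.

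Per kilobase of exon, the members fell into 2 strongly expressed genes and 8 weak ones. Lyz2 averaged 30.3 CPM per kb over the 20 mice (9.63 to 57.7) and Mertk 24.4 (18.6 to 29.97). Csf1r followed at 3.21 CPM per kb (1.64 to 4.90), Lyve1 at 2.61 (1.68 to 3.42), and Folr2 at 2.17 (1.54 to 3.15). Adgre1, Mrc1, and Cd163 averaged 1.26, 1.17, and 0.838 CPM per kb, and Fcgr1 and Siglec1 only 0.357 and 0.151. Neighbors in this order had overlapping ranges over the mice, with the exception of Mertk and Csf1r, whose ranges were apart. Siglec1, at 12 to 62 counts per library, and Fcgr1, at 18 to 67, were measured least precisely.

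The members also varied to different degrees. Lyz2 had the widest range, 5.99-fold between its lowest and highest mouse, with a coefficient of variation of 51.1%. Mertk had the narrowest, 1.62-fold and 13.3%. The coefficients of Csf1r, Fcgr1, Siglec1, and Cd163 were 31.0, 29.7, 28.6, and 28.5%, and those of Adgre1, Mrc1, Folr2, and Lyve1 were 24.4, 20.5, 17.7, and 16.6%. Within diets, the coefficient of Lyz2 was still 44.2% and that of Mertk 11.6%, so most of the variation lay between mice of the same diet.

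**Figure D1:**
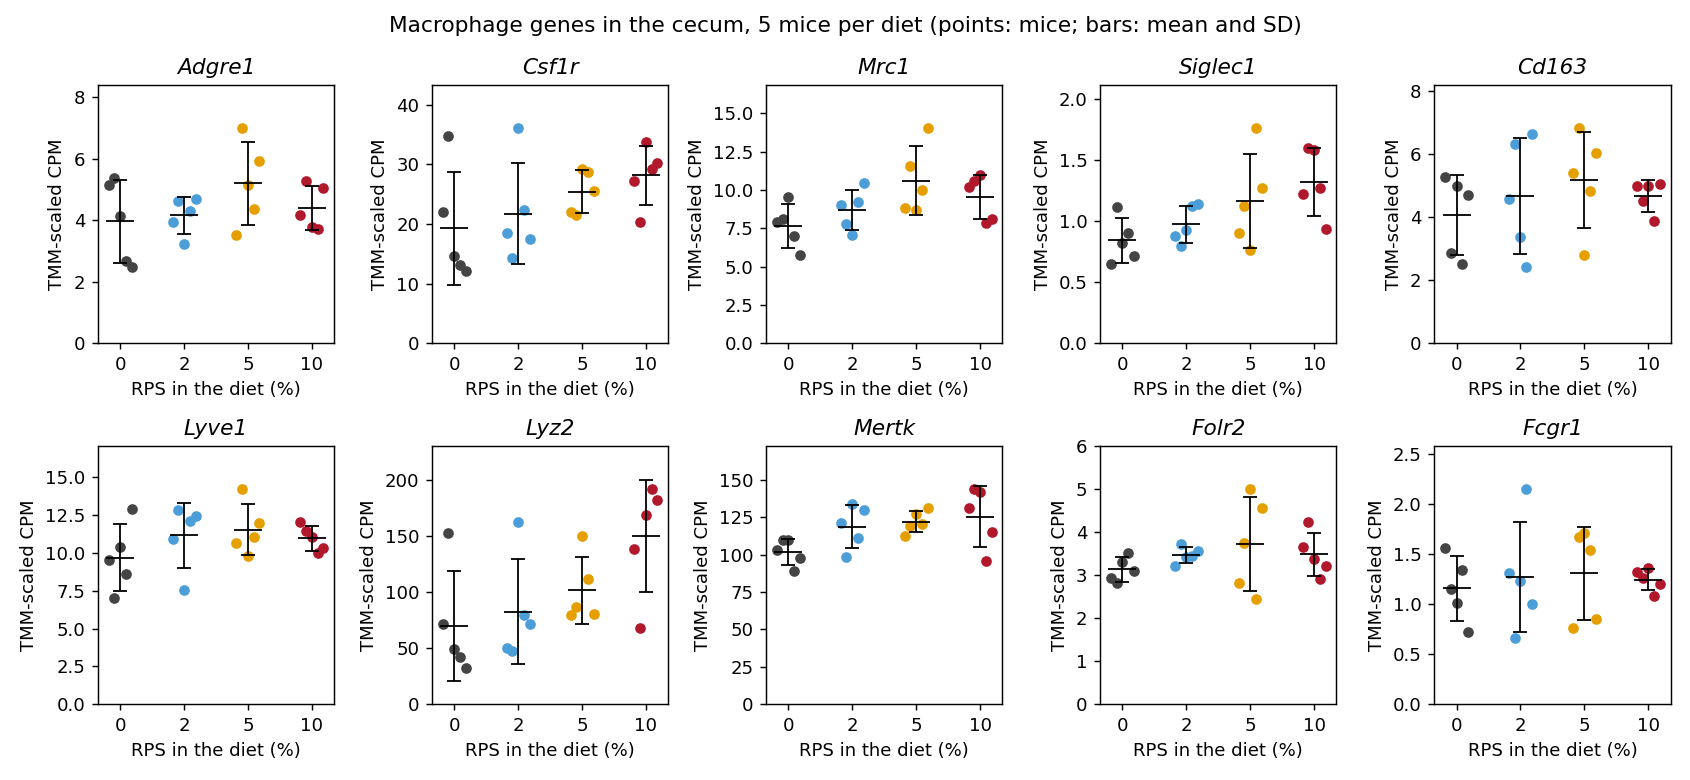
TMM-scaled CPM of the 10 macrophage genes (vertical axes, each from 0) by percentage of RPS in the diet (horizontal axes). Points are mice, 5 per diet, and bars are the mean and SD; in Mertk all 5 mice fed 5% RPS, at 112.6 to 131.1 CPM, sit above all mice fed 0%, while in Lyz2 and Csf1r 1 mouse fed 0% and 1 fed 2% stand far above the rest of their diets.

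The receptors that define the lineage came first. Csf1r, the receptor that macrophages need to survive (GRCm39 chr18:61229714-61266535, plus strand), was at 22.0, 34.8, 14.6, 13.2, and 12.1 CPM in the mice fed 0% RPS and at 27.2, 20.4, 33.7, 29.2, and 30.2 CPM in those fed 10%. Mouse 2 of the 0% group was above every mouse fed 10%, while the other 4 lay at or below 22.0 CPM, and 4 of the 5 mice fed 10% lay above that value. The difference was log2 0.54 ± 0.27 SE (95% interval -0.01 to 1.10, adjusted p = 0.266). Without mouse 2 of the 0% group it was 0.87 and passed the threshold, with an adjusted p of 0.0459. With the B cell and follicle sum as a covariate it was 0.14. At 5% RPS Csf1r was at 21.6 to 29.2 CPM, with a difference from 0% of 0.40 ± 0.27 SE, and at 2% at 14.4 to 36.1 CPM, with a difference of 0.17 ± 0.27 SE. Leaving out any 1 mouse moved the difference at 5% between 0.28 and 0.72.

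Adgre1, which encodes the surface protein F4/80, was at 5.14, 5.37, 4.13, 2.69, and 2.50 CPM at 0% RPS and at 4.18, 5.26, 3.79, 3.72, and 5.06 CPM at 10%. The mice fed 10% lay inside the range of those fed 0%, and the difference was 0.16 on the log2 scale (95% interval -0.30 to 0.61). At 5% RPS the gene reached 3.53 to 6.99 CPM, a difference of 0.39 ± 0.22 SE (adjusted p = 0.462). Fcgr1, the high-affinity receptor for IgG (CD64), ranged from 0.717 to 1.56 CPM at 0%, 0.661 to 2.15 at 2%, 0.767 to 1.71 at 5%, and 1.08 to 1.36 at 10%. Its 10% group had the narrowest spread of the 4 diets and lay within the range of the 0% group, with a log2 difference of 0.11 (95% interval -0.50 to 0.72).

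Mertk, a receptor tyrosine kinase through which macrophages take up apoptotic cells and which other cell types also make, had the lowest coefficient of variation within diets over the 4 diets together, 11.6%, though not within each diet. It lies on GRCm39 at chr2:128540729-128645080 on the plus strand. The 0% mice were at 103.4, 109.6, 109.9, 89.2, and 98.0 CPM, the 5% mice at 112.6, 119.0, 126.9, 120.6, and 131.1 CPM, and the 10% mice at 131.0, 144.1, 142.0, 95.8, and 114.9 CPM. All 5 mice fed 5% were above all mice fed 0%, and at 10% mouse 4 was inside the 0% range while the other 4 were above it. The log2 difference was 0.30 ± 0.10 SE at 10% (95% interval 0.08 to 0.52, adjusted p = 0.123), 0.26 ± 0.10 at 5% (adjusted p = 0.264), and 0.22 ± 0.10 at 2% (adjusted p = 0.849). At 10% the interval lay below the threshold of 1.5-fold, and leaving out any 1 mouse moved the estimate between 0.25 and 0.39. Of all genes tested, 1.53% had a 5% group wholly above the 0% group, and Mertk was the 1 member of 10 that did.

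The receptors for cargo were read next, and their differences from 0% RPS were not tested against each other. Siglec1, the sialic acid-binding lectin CD169 (GRCm39 chr2:130911140-130928685, minus strand), was at 0.651, 1.11, 0.825, 0.906, and 0.717 CPM at 0% RPS and at 1.22, 1.60, 1.58, 1.27, and 0.938 CPM at 10%. In 4 of the 5 mice fed 10% it was above every mouse fed 0%. The log2 difference was 0.66 ± 0.24 SE (95% interval 0.16 to 1.15, adjusted p = 0.138), and leaving out any 1 mouse moved it between 0.58 and 0.78. At 5% and 2% RPS the differences were 0.48 ± 0.24 and 0.22 ± 0.24 SE.

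Mrc1, the mannose receptor CD206 (GRCm39 chr2:14234151-14336926, plus strand), was highest in the mice fed 5%. It was at 7.91, 8.08, 9.56, 7.02, and 5.74 CPM at 0%, at 8.82, 11.5, 8.69, 9.97, and 14.04 CPM at 5%, and at 10.2, 10.6, 11.0, 7.87, and 8.14 CPM at 10%. Both higher diets had 3 of 5 mice above the whole 0% group and the other 2 within it. The log2 difference was 0.47 ± 0.16 SE at 5% (95% interval 0.14 to 0.80, adjusted p = 0.173) and 0.32 ± 0.16 at 10% (adjusted p = 0.271). Between 5% and 10% the difference was -0.15 ± 0.16 SE.

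Cd163, the scavenger receptor for hemoglobin bound to haptoglobin, ranged from 2.52 to 5.27 CPM at 0% and from 3.86 to 5.06 CPM at 10%. Folr2, a folate receptor of resident macrophages, ranged from 2.83 to 3.52 CPM at 0% and from 2.92 to 4.23 CPM at 10%. Lyve1, a hyaluronan receptor that lymphatic endothelium carries as well as a subset of macrophages, ranged from 7.01 to 12.9 CPM at 0% and from 10.0 to 12.0 CPM at 10%. The groups overlapped in all 3 genes, and the log2 differences at 10% were 0.20 (95% interval -0.36 to 0.76), 0.15 (-0.20 to 0.51), and 0.18 (-0.15 to 0.50). Leaving out any 1 mouse moved them between 0.074 and 0.31, 0.073 and 0.22, and 0.085 and 0.32. For these 3 genes neither a difference nor its absence was shown.

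Lyz2 was at 71.6, 152.7, 49.2, 42.3, and 32.01 CPM in the mice fed 0% RPS, at 50.3, 47.8, 162.3, 79.3, and 71.2 CPM at 2%, at 79.1, 86.3, 149.7, 111.5, and 80.7 CPM at 5%, and at 138.4, 68.2, 168.8, 191.8, and 182.2 CPM at 10%. Mouse 2 of the 0% group was far above the rest of its group and mouse 2 of the 10% group the lowest of that diet, so that the ranges overlapped. Without mouse 2 of the 0% group the difference at 10% was 1.62 in place of 1.11 on the log2 scale and passed the threshold (adjusted p = 0.0291), and over the removal of each mouse in turn it ran from 0.94 to 1.62. With the B cell and follicle sum as a covariate it was 0.47. Lyz1 had the same pattern at a lower level, 1.26 to 17.4 CPM at 0% and 3.90 to 25.1 CPM at 10%, with a log2 difference of 1.64 ± 0.72 SE (adjusted p = 0.226). Across the 20 mice the log2 CPM of Lyz1 and Lyz2 had a Pearson r of 0.975 (Spearman rho 0.926, permutation p = 1e-05 for each, the smallest that 100000 permutations can give). Of the other Paneth cell markers, Defa24, Mmp7, and Pla2g2a had at most 3, 4, and 0 counts in any library, while Itln1, named after its values were seen, had 5 to 127 counts and did not pass the threshold at any dose against 0% RPS.

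**Figure D2:**
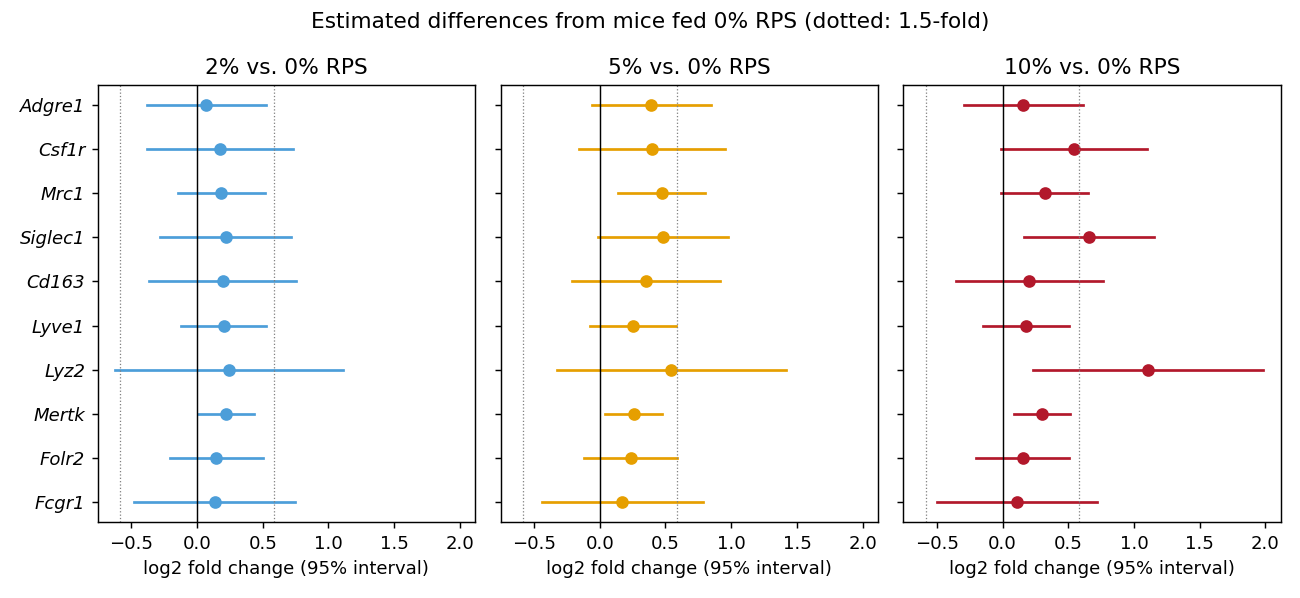
Log2 fold change from 0% RPS (horizontal axes) of the 10 macrophage genes (vertical axis) at 2, 5, and 10% RPS, with 95% intervals as lines and 1.5-fold in either direction dotted. All 30 points lie above 0; at 10% the intervals of Siglec1, Lyz2, and Mertk lie wholly above 0, and that of Mertk ends at 0.52, short of the dotted line.

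As a group, the members had a median log2 difference from 0% RPS of 0.25 at 10%, 0.37 at 5%, and 0.19 at 2%, against medians of 0.004, -0.002, and 0.004 over all genes tested. All 10 estimates were above 0 in each of these comparisons, where 50.9, 49.5, and 51.0% of all genes were. Leaving out 1 mouse turned the sign of Fcgr1 at 10% (to -0.011) and of Adgre1, Csf1r, Lyz2, and Fcgr1 at 2% (to -0.048, -0.085, -0.16, and -0.14 at the lowest). At an unadjusted p under 0.05, 3 members were higher at 10% (Lyz2, Siglec1, and Mertk), 2 at 5% (Mrc1 and Mertk), and 1 at 2% (Mertk), against 9.74, 6.74, and 2.58% of all genes. With the adjusted threshold 0 of 10 members were called at 10, 5, and 2%, where 1.04, 0.195, and 0% of all genes were called, and DESeq2 also called 0. The paper, which used DESeq2 with the same thresholds, lists Siglec1 as higher in the cecum at 10% RPS. That call was not obtained here. No member had a 10% group wholly above the 0% group, as 1.68% of all genes did. Members that correlate across mice are not independent of each other, so the counts describe the list and no test was made on it.

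The dose order was read from a linear trend over all 20 mice. Per percentage point of RPS, the estimated slope of the log2 level was 0.11 ± 0.036 SE for Lyz2 (adjusted p = 0.116), 0.064 ± 0.021 for Siglec1 (adjusted p = 0.118), 0.053 ± 0.024 for Csf1r (adjusted p = 0.231), and 0.025 ± 0.010 for Mertk (adjusted p = 0.191). With the B cell and follicle sum as a covariate the slope was 0.046 for Lyz2 and 0.013 for Csf1r, against 0.061 for Siglec1 and 0.025 for Mertk. The trend called 0 members, against 1.11% of all genes, and the 4 members with an unadjusted p under 0.05 stand against 9.37% of all genes. Leaving out mouse 2 of the 0% group or mouse 3 of the 2% group brought Lyz2 past the threshold (adjusted p = 0.0407 and 0.0443), and leaving out mouse 4 of the 10% group did so for Mertk (adjusted p = 0.0447). Between neighboring doses 0 members and 0% of all genes were called, at 5% against 2% and at 10% against 5%. At 5% against 2%, all 10 estimates were above 0 (0.036 to 0.32), while at 10% against 5% 4 were above 0 (Lyz2, Siglec1, Csf1r, and Mertk).

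The members did not vary across the mice as 1 block. Of the 45 pairs, 35 had a positive Pearson r of log2 CPM, with a median r of 0.27, and 5 passed Benjamini-Hochberg adjustment of permutation p-values over the 45 pairs. The number that passed ran from 1, without mouse 4 of the 0% group, to 7, without mouse 4 of the 10% group, and was 3 without mouse 5 of the 0% group or mouse 2 or 5 of the 2% group. The highest was Csf1r with Lyz2, at r = 0.948 and rho = 0.943 (adjusted p = 0.00045 for each), and r was 0.925 without the 2 mice farthest from the median of Csf1r and 0.940 with the diet means removed. A second set was formed by Mrc1 with Adgre1 (r = 0.670, rho = 0.520), with Mertk (r = 0.661, rho = 0.687), and with Siglec1 (r = 0.616, rho = 0.620). The last pair was Cd163 with Lyve1 (r = 0.625, rho = 0.504). Adjusted permutation p-values of these 4 Pearson values were 0.0214, 0.0214, 0.0338, and 0.0338, in that order, and of the rank correlations only Csf1r with Lyz2 and Mrc1 with Mertk passed (adjusted p = 0.00045 and 0.0259). Without the 2 mice farthest from the median of Adgre1, of Mrc1 for both of its other pairs, and of Cd163, r was 0.483, 0.630, 0.576, and 0.787.

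With the mean of each diet removed, 3 pairs passed adjustment. Csf1r with Lyz2 remained, and Lyve1 ran against both, at r = -0.773 with Csf1r and r = -0.755 with Lyz2 (adjusted permutation p = 0.0279 for each). Over the mice without removal of the diet means these pairs had r = -0.422 and r = -0.374 (rho -0.480 and -0.358), neither past adjustment. Without the 2 mice farthest from the median of the gene on the x axis, r over the mice as measured was -0.572 for Csf1r with Lyve1 and -0.166 for Lyve1 with Lyz2. The values with diet means removed were not computed without those mice. With diet means removed, Cd163 had r = -0.409 with Csf1r and -0.423 with Lyz2, and neither passed.

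**Figure D3:**
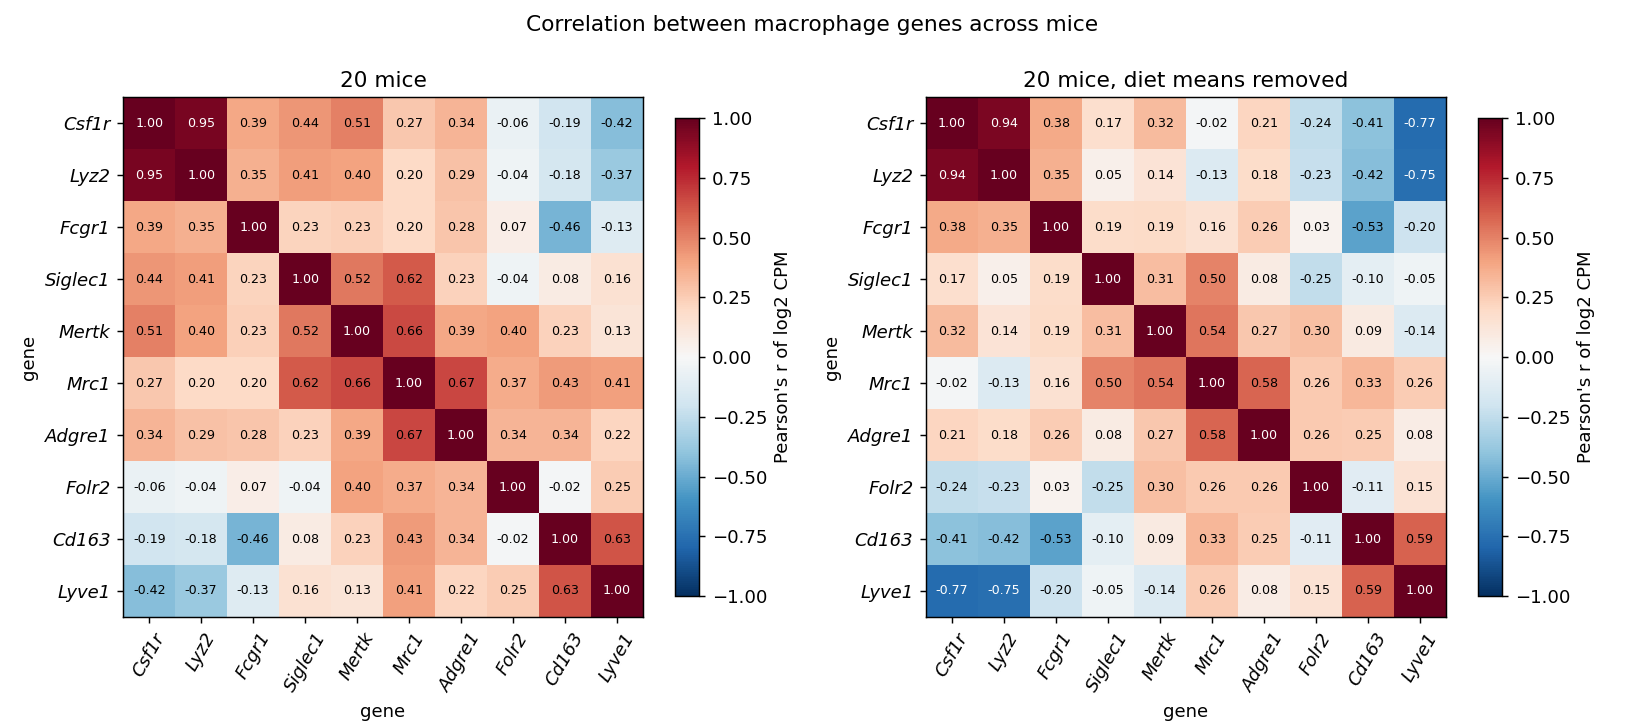
Pearson's r of log2 CPM between each 2 of the 10 macrophage genes (both axes) over 20 mice, as measured (left) and with diet means removed (right), from blue at -1 to red at 1. Csf1r and Lyz2 form a corner at 0.95 and 0.94, and Lyve1 is blue against both, at -0.77 and -0.75 in the right panel.

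The genes most like each member, as the 3 highest Pearson correlations over the 20 mice among all other tested genes, differed from member to member. Csf1r was nearest to Lax1 (r = 0.950), Itgax, the integrin CD11c of dendritic cells and some macrophages (r = 0.945), and Il10ra, the interleukin-10 receptor (r = 0.943). Lyz2 was nearest to Lyz1, Susd3 (r = 0.969), and Tyrobp, the adaptor of myeloid activating receptors (r = 0.968). Lyve1 was nearest to Prox1, the transcription factor that specifies lymphatic endothelium (r = 0.911), then Dcbld2 (r = 0.830) and Zfp982 (r = 0.821). Mertk was nearest to Prkcz (r = 0.861), Mgam2-ps (r = 0.857), and Fgfr2, a receptor of fibroblast growth factors (r = 0.853). Fcgr1 was nearest to Bmal1, a core gene of the circadian clock (r = 0.778), Mpzl1 (r = 0.751), and Ms4a7, a gene of tissue macrophages (r = 0.733).

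For Adgre1 they included H3c14 (r = 0.769) and Jchain, the joining chain of secreted antibody (r = 0.757). For Mrc1 these were Ceacam2, Clec2e, and Tmprss4 (r = 0.834, 0.832, and 0.826), for Siglec1 Rilpl2, Hyal3, and P2rx5 (r = 0.797, 0.772, and 0.759), for Cd163 Sdc2, Prkab2, and Slc38a4 (r = 0.825, 0.797, and 0.794), and for Folr2 Phgr1, BC025920, and 4930447C04Rik (r = 0.805, 0.776, and 0.771). These genes were picked from 15348 for their likeness over 20 mice and are given as a description with no test.

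Because whole cecum was sequenced, the members were set beside the summed CPM of 11 marker lists, a set of 110 relations made after earlier results were known. With adjustment over the 110, 16 passed, and 9 with diet means removed. Csf1r and Lyz2 followed the B cell and follicle sum (r = 0.852 and 0.892; rho = 0.881 and 0.865), the dendritic cell sum (r = 0.949 and 0.934; rho = 0.971 and 0.943), and the T cell sum (r = 0.793 and 0.806; rho = 0.851 and 0.791). Adjusted permutation p-values of these Pearson values ran from 0.000275 to 0.000917. The sum of 8 epithelial markers, most of it Car1, a carbonic anhydrase of colonocytes, ran the other way (r = -0.608 for Csf1r and -0.676 for Lyz2, rho -0.540 and -0.642, adjusted permutation p = 0.0378 and 0.0138). Lyve1 followed the lymphatic endothelial sum (r = 0.600, rho = 0.463, adjusted permutation p = 0.0387). Mertk, Siglec1, Mrc1, and Csf1r followed the fibroblast sum (r = 0.764, 0.647, 0.654, and 0.607; rho = 0.788, 0.600, 0.592, and 0.540), and Mertk, Siglec1, and Mrc1 the interferon-induced genes (r = 0.661, 0.640, and 0.599; rho = 0.699, 0.639, and 0.588), with adjusted permutation p-values from 0.00173 to 0.0385. Without the 2 mice farthest from the median of each sum, the 14 positive values ran from 0.510 to 0.940 and the 2 negative values were -0.621 and -0.694. By rank, 10 of the 16 passed. Those that did not were Lyve1 with the lymphatic endothelial sum (adjusted permutation p = 0.155), Csf1r with the fibroblast and epithelial sums, Mrc1 and Siglec1 with the fibroblast sum, and Mrc1 with the interferon-induced genes (0.0553 to 0.0966). With diet means removed, those that passed were Csf1r and Lyz2 with the B cell, T cell, and dendritic cell sums, Mertk with the fibroblast sum, and, in the negative direction, Lyve1 with the B cell and dendritic cell sums (r = -0.791 and -0.792).

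The B cell and follicle sum, which Lyz2 and Csf1r followed, also differed between the diets in its median. It had a median of 21.7 CPM at 0% RPS (5.99 to 230), 10.9 at 2% (4.03 to 347), 79.5 at 5% (7.97 to 153), and 257 at 10% (16.3 to 320). All 8 markers were tested, all 8 had estimates above 0 at 10%, and 0 passed the threshold, against 50.9 and 1.04% of all genes. Mouse 2 of the 0% group and mouse 3 of the 2% group, the highest for Lyz2 in their groups, were also the highest for this sum, and mouse 2 of the 10% group, the lowest for Lyz2 there, was the lowest. The dendritic cell sum had a median of 17.9 CPM at 0% (14.1 to 32.3) and 31.7 at 10% (18.9 to 37.9), and the T cell sum 25.4 (23.2 to 54.9) and 46.6 (16.9 to 60.5).

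**Figure D4:**
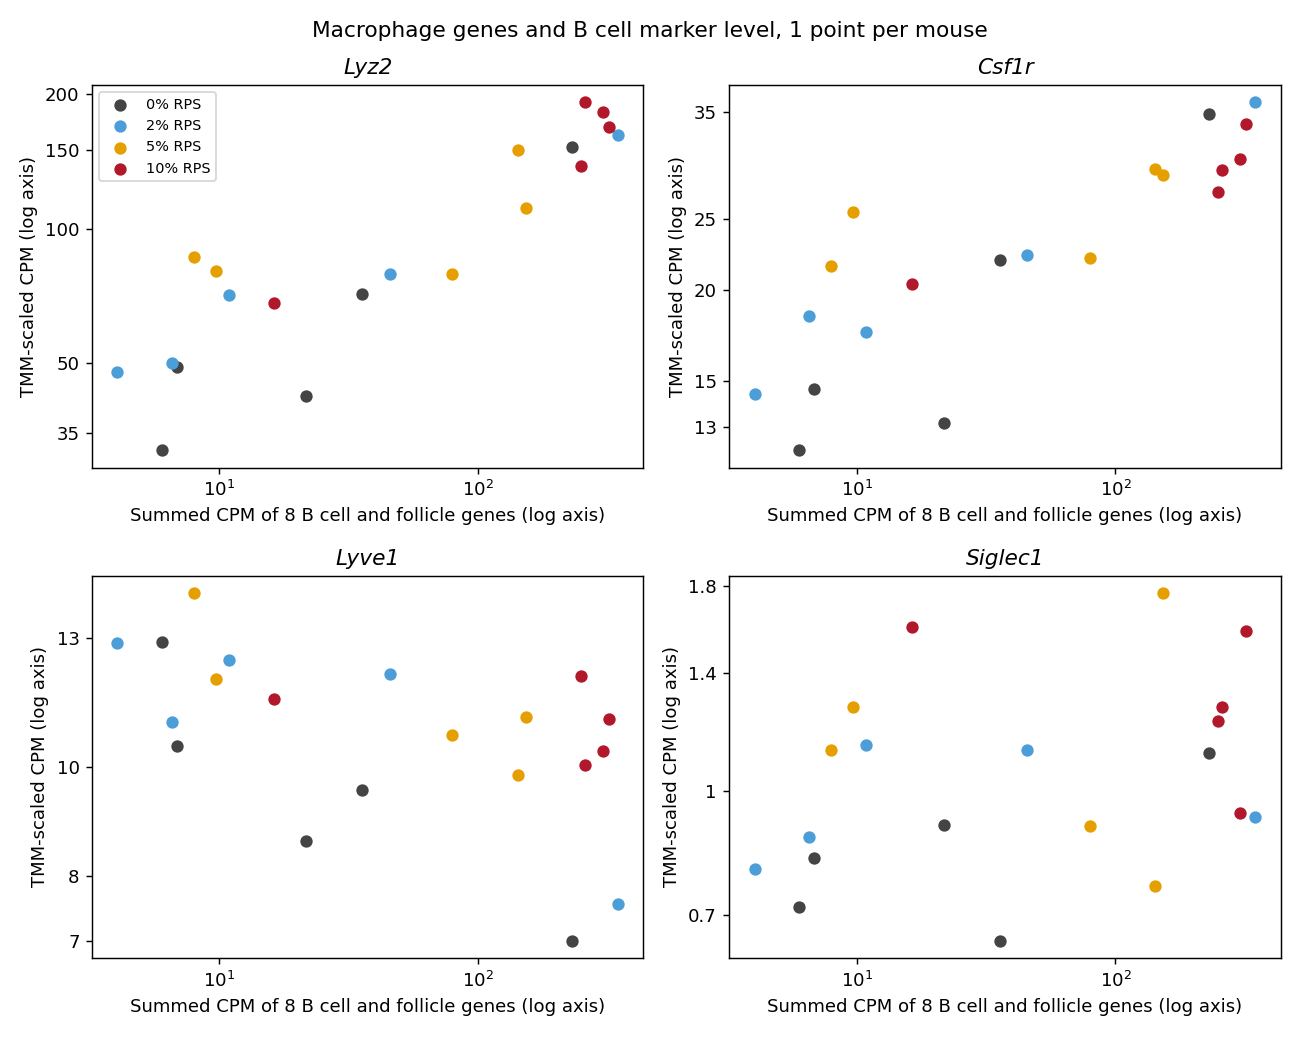
TMM-scaled CPM of 4 macrophage genes (vertical axes, log scale) against the summed CPM of 8 B cell and follicle genes (horizontal axes, log scale), 1 point per mouse, colored by diet. Lyz2 and Csf1r are higher in mice with a higher sum (r = 0.892 and 0.852), Lyve1 has r = -0.546 and Siglec1 r = 0.317, neither past adjustment.

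When the log2 of this sum was added to the fit, the estimates of the members moved in different directions. Each doubling of the sum went with log2 0.27 ± 0.032 SE more Lyz2 and 0.17 ± 0.025 more Csf1r (adjusted p = 4.48e-06 and 4.08e-05), and with a slope of -0.092 ± 0.021 for Lyve1 (adjusted p = 0.00716). The difference at 10% RPS was then 0.47 for Lyz2 (adjusted p = 0.225) and 0.14 for Csf1r (adjusted p = 0.657), while that of Siglec1 stayed at 0.63 and that of Mertk at 0.29. In the other direction, Lyve1 went from 0.18 to 0.45 (adjusted p = 0.0735), Cd163 from 0.20 to 0.57 (adjusted p = 0.257), and Mrc1 from 0.32 to 0.44 (adjusted p = 0.175). Again 0 of 10 genes passed the threshold. This covariate was chosen after the data had been seen, and since the sum differs between diets, what belongs to the diet and what belongs to the sum cannot be told apart.

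**Figure D5:**
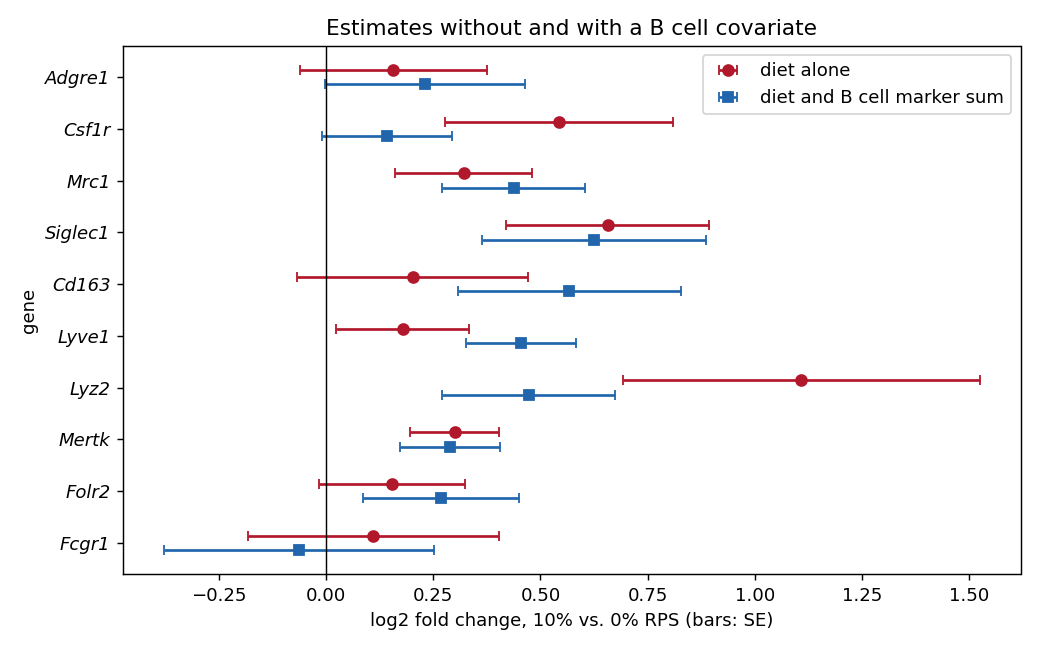
Log2 fold change at 10% against 0% RPS (horizontal axis, bars are SE) of the 10 macrophage genes (vertical axis) from the fit on diet alone (red circles) and with the B cell marker sum as a covariate (blue squares). Lyz2 moves from 1.11 to 0.47 and Csf1r from 0.54 to 0.14, while Lyve1 and Cd163 move up to 0.45 and 0.57.

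Further genes were read from 5 companion lists, and in whole cecum their counts are not those of macrophages alone. Of 22 further macrophage lineage genes, 21 were tested at 10% against 0% RPS, 20 had estimates above 0 with a median log2 of 0.41, 6 had an unadjusted p under 0.05 in that direction, and 0 passed the threshold. Of all genes tested, 50.9% had estimates above 0 in this comparison, 9.74% were higher at that unadjusted p, and 1.04% passed the threshold. Tyrobp had the lowest p in this list, at 5.34 ± 1.76 CPM (SD, n = 5) at 0% and 7.90 ± 1.69 CPM at 10% (log2 0.57 ± 0.21 SE, adjusted p = 0.145). Itgam, which encodes CD11b, had at most 3 counts in any library, so this myeloid marker could not be read. Of 21 tested ligands and partners of the members, 0 passed and 16 had estimates above 0, with a median of 0.11. Fcgr2b, the inhibitory IgG receptor that B cells also carry, had the lowest p there, at 9.56 ± 3.30 CPM at 0% and 17.4 ± 4.81 CPM at 10% (log2 0.86 ± 0.28 SE, adjusted p = 0.109).

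In the monocyte and inflammatory list, 13 genes were tested at 10%, of which 3 passed the threshold as higher and 1 as lower. Of all genes tested, 1.04% passed in either direction. Ccr2, the chemokine receptor by which monocytes leave the bone marrow, rose from 2.59 ± 0.730 CPM (SD, n = 5) at 0% to 6.06 ± 0.938 CPM at 10%, with no overlap between the groups (log2 1.23 ± 0.23 SE, adjusted p = 0.0235). Nos2, the inducible nitric oxide synthase, which epithelium can make as well, rose from 0.792 ± 0.482 to 4.41 ± 2.73 CPM without overlap (log2 2.48 ± 0.55 SE, adjusted p = 0.0289). Retnla, a resistin-like protein of alternatively activated macrophages, rose from 3.01 ± 1.33 to 8.50 ± 3.29 CPM (log2 1.503 ± 0.35 SE, adjusted p = 0.0334). Ptgs2, the inducible cyclooxygenase, fell from 17.8 ± 7.02 to 7.58 ± 3.13 CPM (log2 -1.23 ± 0.30 SE, adjusted p = 0.0435). Of the neutrophil markers, S100a8 and S100a9 had at most 9 and 12 counts in any library. Ly6g and Csf3r, named after their values were seen, reached 502 and 83 counts. Ly6g was at 5.73 ± 6.49 CPM (SD, n = 5) at 0% and 0.866 ± 0.545 CPM at 10%, with overlapping groups and an unadjusted p under 0.05, and neither marker passed the threshold at any dose against 0%. The paper lists Ly6g as lower in the cecum at 10% RPS, a call not obtained here.

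Of 17 tested scavenger, lectin, and iron-handling genes, 9 had estimates above 0 at 10% and 8 below, with a median log2 of 0.24. An unadjusted p under 0.05 was reached by 4 as higher, against 9.74% of all genes, and by 1 as lower. The threshold was passed by 1 gene, against 1.04% of all genes. This was Hmox1, the heme oxygenase that works downstream of Cd163 in hemoglobin clearance, which fell from 6.58 ± 1.34 CPM (SD, n = 5) at 0% to 3.56 ± 0.258 CPM at 10% without overlap (log2 -0.88 ± 0.20 SE, adjusted p = 0.0289). Cd163 itself had an estimate of 0.20 in the same comparison. Marco, Vsig4, and Cd5l, markers of macrophages in other organs, had at most 13, 10, and 11 counts in any library. Of 20 interferon-induced genes, to which Siglec1 is known to belong in monocytes, 18 had estimates above 0 at 10%, 6 with an unadjusted p under 0.05, and 0 passed the threshold. The shares over all genes were 50.9, 9.74, and 1.04%. Mx1, an antiviral GTPase, had the lowest p in that list (log2 0.69 ± 0.20 SE, adjusted p = 0.0782). The paper lists Mx1, Oas3, Irf7, and others of these genes as higher in the cecum at 10% RPS, calls not obtained here. At 5% and 2% RPS, 0 genes of the 5 lists passed the threshold against 0%, where 0.195 and 0% of all genes did.

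Over the linear trend, Ccr2 and Nos2 passed, with slopes of 0.11 and 0.24 per percentage point (adjusted p = 0.0275 and 0.0333). The calls on these companion genes were close to the threshold. The call was lost in 1 of 26 alternative fits for Ccr2, in 8 for Nos2 and for Retnla, in 9 for Hmox1, and in 14 for Ptgs2, with adjusted p-values up to 0.0810, 0.101, 0.110, 0.0874, and 0.132, while the direction was kept in each. The trend call was lost in 5 of the 26 for Ccr2 and in 6 for Nos2, with adjusted p-values up to 0.0967 and 0.135. In the fit with the B cell sum, Ccr2, Nos2, and Retnla kept the call, and Ptgs2 and Hmox1 had adjusted p-values of 0.079 and 0.0503, with log2 differences of -1.22 and -0.93 against -1.23 and -0.88 without the sum. Of 8 smooth muscle markers, 1 passed the threshold at 10% and at 5%, against 1.04 and 0.195% of all genes. An unadjusted p under 0.05 as higher was reached by 5 at 10% and 8 at 5%, against 9.74 and 6.74% of all genes. Smooth muscle and fibroblast sums had medians of 3502 and 477 CPM at 0% RPS, 7047 and 743 CPM at 5%, and 6408 and 668 CPM at 10%. The epithelial sum had medians of 35847, 30281, and 28131 CPM in these diets. Named after their values were seen, Car1 made up most of the epithelial sum, with a mean of 25141 CPM at 0% and 18623 CPM at 10%, and Cdx2, at 403 and 416 CPM, had the 1 estimate above 0 among the 8 markers. The other 7 were below 0, 3 of them with an unadjusted p under 0.05, with a median over the 8 of -0.16 on the log2 scale. Of the 6 fibroblast markers, Pdgfra had the 1 estimate below 0, at 47.8 and 38.5 CPM. The part of these cell types in the differences of the macrophage genes was not tested.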

How the data were processed

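RNA from the cecum of 20 mice, 5 per diet, was measured by RNASeq. The deposited table holds raw counts per gene and mouse, which the authors made from single-end sequencing of poly(A)-selected, strand-specific libraries by removing low-quality nucleotides and reads with ambiguous nucleotides and by mapping to GRCm39 in the CLC Genomics Workbench. The annotation release, the strand setting, and the treatment of reads that match several genes are not given in the sources used here. Of 19887 gene identifiers, 19827 matched GENCODE mouse release 39.

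Genes with low counts were removed by filterByExpr (minimum count 10, minimum total 15), which left 15348. Counts were scaled by TMM and fitted over the 4 diets with robust quasi-likelihood in edgeR 4.0.16 (limma 3.58.1, R 4.3.3), with Benjamini-Hochberg adjustment over all genes tested. A call required an adjusted p of at most 0.05 and a fold change of at least 1.5, and the linear trend had no fold threshold. The fits were tested on simulated data first. Correlations used log2 CPM with a prior count of 2 and 100000 two-sided permutations (NumPy 2.4.6, within diets where diet means were removed). No 2 libraries of a diet agreed within sampling noise. Counts per 50-base stretch came from the GENCODE transcripts.

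Every member was named, with the 3 tested genes most correlated with it, and Lyz1. Of these correlated genes, 1 is not reported here. Each companion list gave the genes called against 0% RPS, or else the gene with the lowest p at 10%, and marker lists of other cells gave sums and markers near 0. The members and lists were chosen with earlier results of these data known. Alternatives were DESeq2 1.42.0, its size factors, no filter on low counts, no robust estimation, only the 2 diets compared, no fold threshold, the rank of the dose, a prior count of 0.5 for correlations, the removal of 1 mouse at a time, and, chosen after seeing the data, the log2 of the B cell and follicle sum as a covariate. The 95% intervals use the moderated degrees of freedom of the fit. All p-values measure the spread between mice.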

Additional observations from a re-analysis of the deposited data

Results flagged for a closer look

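In mouse 3 of the group fed 2% RPS, Lyz2 was at 162.3 CPM, far from the other 4 mice of that diet, the nearest of which was at 79.3 CPM. The gap was 0.725 of the range of the group, above the 95% limit for 5 mice. It was the 1 such mouse among the 40 combinations of member and diet, where chance gives about 1 in 20. The same mouse was the highest of all 20 for Csf1r, at 36.1 CPM, and for the summed B cell and follicle markers, at 347 CPM. Lyve1 in this mouse was at 7.55 CPM, the lowest of its diet. The part of other cell types in these values was not tested.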

How the results depend on the processing

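The number of macrophage genes called at 10% against 0% RPS ran from 0 to 2 over fits that each lacked 1 mouse. The 2 appeared without mouse 2 of the 0% group and were Csf1r (log2 0.87, adjusted p = 0.0459) and Lyz2 (log2 1.62, adjusted p = 0.0291). For the trend the number ran from 0 to 1, with Lyz2 called without mouse 2 of the 0% group (slope 0.14) or mouse 3 of the 2% group (slope 0.12), and Mertk without mouse 4 of the 10% group (slope 0.034). At 5% and 2% against 0%, 5% against 2%, and 10% against 5%, 0 members were called in every alternative fit run, and the alternatives other than leaving out a mouse also gave 0 at 10% and for the trend. The number of correlated pairs past adjustment, 5, ran from 1, without mouse 4 of the 0% group, to 7, without mouse 4 of the 10% group, and was 3 without mouse 5 of the 0% group or mouse 2 or 5 of the 2% group. A prior count of 0.5 and DESeq2 size factors each gave 5. Of 47 gene estimates under 1222 alternatives, 1157 kept their direction and side of the threshold, 51 lost a call (all of companion genes), 5 gained one, and 9 reversed. At 10%, Fcgr1 reversed to -0.011 without mouse 5 of the 0% group and to -0.063 with the B cell covariate, and its trend to -0.0012 and -0.0088. At 2%, Adgre1 reversed to -0.036 and -0.048 without mouse 4 or 5 of the 0% group, Csf1r to -0.085 and Lyz2 to -0.16 without mouse 3 of the 2% group, and Fcgr1 to -0.14 without mouse 4 of the 2% group. Over the removal of single mice the highest values of these estimates were 0.24 (Fcgr1 at 10%), 0.018 (its trend), and, at 2%, 0.21 (Adgre1), 0.50 (Csf1r), 0.76 (Lyz2), and 0.30 (Fcgr1). The cause was not tested. Depth limits Siglec1 and Fcgr1, which had under 70 counts in each library. No paired analysis was possible because the numbers of the mice in the labels are not shared between diets.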
